A study of Homo sapiens with 32 samples.

Results

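The alpha-2-macroglobulin family was followed as 6 genes, A2M, its antisense transcript A2M-AS1, A2ML1, CD109, PZP and CPAMD8, chosen by their symbols from the 28278 gene symbols of the count tables and by their Ensembl genes from the 60199 of the knockdown table. All 6 were found in both. The choice drew on measured values, since A2M was known to be high in EZH2 KO and SUZ12 KO cells and A2ML1 in several arms. Therefore A2M, A2M-AS1 and A2ML1 in the EZH2 KO and SUZ12 KO clones, and A2ML1 in every KO or knockdown arm, are described without a test, and tests are given for the other members and arms. RNA was sequenced from A673, an established Ewing sarcoma cell line. Experiment 1 held 2 libraries of a clone with an inducible Cas9 in the AAVS1 locus (WT clone, genotype iCas9), 1 library of the parental line and 2 STAG2 KO libraries. Experiment 2 held 2 WT clone, 1 parental, 3 STAG2 KO, 3 EZH2 KO and 3 SUZ12 KO libraries. Experiment 3 held 1 WT clone, 1 parental and 3 STAG1 KO libraries. Parental and WT clone libraries are called proficient, and every KO clone was derived from the WT clone and thus carries iCas9, which the parental line lacks. Experiment 4 compared A673 cells transfected with siRNA against STAG2 (siSTAG2) with mock-transfected cells (siC), 3 libraries each, and 2 further Ewing sarcoma lines gave isogenic pairs of 1 library per arm, SK-N-MC with and without STAG2 and A4573, which lacks STAG2, with and without its restoration (STAG2 KI). Each KO library is named by the number in its table, and in experiments 1 and 3 that number could be tied to the genotype but not to 1 labelled clone. A STAG2 KO library numbered 5 occurs in both experiment 1 and experiment 2, and whether these are the same clone is not known.

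Alpha-2-macroglobulin is a large secreted inhibitor that cages proteases of every class. A protease cuts its bait region, a reactive thioester opens, the inhibitor closes around the protease and the complex is taken up through LRP1. The liver makes most of the protein in plasma, and it also binds growth factors such as TGF-beta. PZP is its pregnancy-associated relative, A2ML1 an inhibitor of the epidermis, CD109 a GPI-anchored co-receptor that restrains TGF-beta signaling, and CPAMD8 a relative with a Kazal-type domain that is linked to development of the anterior eye. EZH2 and SUZ12 are the catalytic subunit and an essential partner in PRC2, which places the repressive H3K27me3 mark, whereas STAG1 and STAG2 are alternative subunits of cohesin.

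In GRCh38 with GENCODE 44 annotation, A2M (ENSG00000175899) lies on the minus strand of chromosome 12 from 9067664 to 9116229. A2M-AS1 (ENSG00000245105), a long noncoding RNA, lies on the plus strand from 9065163 to 9068689 and runs into the 3′ end of A2M, with 561 exonic bases in common, 19.03% of those of A2M-AS1. A2ML1 (ENSG00000166535) lies on the plus strand from 8822621 to 8887001 and PZP (ENSG00000126838) on the minus strand from 9148840 to 9208395, so that these 4 members fall within 385.8 kb. CD109 (ENSG00000156535) is on the plus strand of chromosome 6 from 73695785 to 73828316, and shares 300 exonic bases with CD109-AS1. CPAMD8 (ENSG00000160111) is on the minus strand of chromosome 19 from 16892951 to 17026815. The libraries were non-directional, and reads from exons shared with an antisense gene cannot be told apart.

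RefSeq start sites (GRCh38.p14) were matched for 5 of the 6 members, 7 starts in all, and A2M had no entry. Windows of 250 bases upstream are shown for A2ML1, CPAMD8 and PZP. A2ML1 and CPAMD8 were higher in the PRC2 KO clones than in the controls of experiment 2, and PZP stayed at no more than 1 count in each clone. The windows are read 5′ to 3′ on the strand of the gene, and capitals mark CG dinucleotides. The first A2ML1 window is chr12:8822371-8822620 on the plus strand and that of PZP chr12:9208396-9208645 on the minus strand, both outside the exons of their genes. The first CPAMD8 window, chr19:16896948-16897197 on the minus strand, lies inside the gene with 26 exonic bases, and the second, chr19:17026811-17027060 on the same strand, lies at the gene's outer start.
A2ML1 start 1: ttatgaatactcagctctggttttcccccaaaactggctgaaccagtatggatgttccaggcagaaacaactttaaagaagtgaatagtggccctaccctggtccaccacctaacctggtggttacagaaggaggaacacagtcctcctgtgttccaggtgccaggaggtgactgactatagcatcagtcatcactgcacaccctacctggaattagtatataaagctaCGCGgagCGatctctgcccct
PZP: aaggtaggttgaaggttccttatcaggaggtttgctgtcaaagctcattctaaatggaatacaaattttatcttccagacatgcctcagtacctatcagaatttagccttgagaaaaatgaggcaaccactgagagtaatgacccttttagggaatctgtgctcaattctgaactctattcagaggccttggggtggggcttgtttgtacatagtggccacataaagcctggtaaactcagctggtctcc
CPAMD8 start 1: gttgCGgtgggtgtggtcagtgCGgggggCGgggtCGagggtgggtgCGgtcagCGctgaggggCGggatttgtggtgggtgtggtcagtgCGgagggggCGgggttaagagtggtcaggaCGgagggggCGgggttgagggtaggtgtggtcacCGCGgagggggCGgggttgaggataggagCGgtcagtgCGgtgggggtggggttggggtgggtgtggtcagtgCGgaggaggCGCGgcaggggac
CPAMD8 start 2: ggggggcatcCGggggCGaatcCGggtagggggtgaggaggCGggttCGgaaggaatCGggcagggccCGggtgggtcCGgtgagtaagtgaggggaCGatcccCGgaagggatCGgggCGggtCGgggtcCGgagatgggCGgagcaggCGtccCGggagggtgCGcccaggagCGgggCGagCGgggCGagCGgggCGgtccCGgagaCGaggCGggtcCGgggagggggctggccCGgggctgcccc
Over 300 bases from 250 upstream to 50 downstream of a start, the observed over expected ratio of CG was 0.0656 for PZP, 0.164 and 0.495 for the 2 A2ML1 starts, 0.526 for A2M-AS1, 0.684 for CD109 and 0.870 and 0.983 for the 2 CPAMD8 starts. The median of all 35116 promoters was 0.579. Among all promoters A2ML1 start 1 lay at percentile 17.4 and CPAMD8 start 2 at percentile 90.1. Searched on both strands, TATAAA (11.5% of all promoters) was found only at A2ML1 start 1 and GGAAGGAA, a pair of the GGAA units that EWS::FLI1 recognizes (3.67%), only at CPAMD8 start 2. TTCNNNGAA, a STAT-type motif (7.66%), was in none of the 7. No window held 2 of these motifs, so none overlapped another, and no match in 300 bases says nothing of sites elsewhere.

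Libraries of A673 clones held 15734628 to 20663679 counts, the isogenic libraries 29322507 to 32261248, and the knockdown libraries 6852340 to 8184632 recovered reads. The targeted transcripts checked the labels of the clone and isogenic libraries. EZH2 was at 28.4 to 55.3 normalized CPM (counts scaled to the library size and by TMM) in EZH2 KO libraries against 172.4 to 194.4 in the proficient libraries of experiment 2, and SUZ12 at 11.3 to 20.6 in SUZ12 KO against 60.3 to 67.1. STAG2 was at 42.4 to 184.2 in STAG2 KO libraries, highest in library 24, against 256.2 to 360.8 in the proficient libraries of experiments 1 and 2. In SK-N-MC it was at 179.3 in STAG2 KO against 281.3 with STAG2. In A4573 it was at 32.3 in the library labelled WT against 85.2 in STAG2 KI. STAG1 was at 15.1 and 33.2 in STAG1 KO libraries 5 and 7, but at 61.5 in the library labelled STAG1 KO 1, within the range of its controls (57.8 and 69.6), and STAG1 KO values are therefore given with and without it. Of 10 Ewing sarcoma markers, 9 were above 3 counts in every group, with CD99 the exception.

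Levels of different genes are compared per kb of exon. In the 8 proficient A673 libraries CD109 led with a mean of 1.43 normalized CPM per kb, followed by A2ML1 (0.474), CPAMD8 (0.0641), A2M (0.0406) and A2M-AS1 (0.0161). CD109 ranged from 10.3 to 21.0 normalized CPM in these libraries (mean 13.95 ± 3.64, SD, n = 8) and A2ML1 from 2.20 to 4.17 (3.39 ± 0.70). The ranges of CPAMD8 (0.0558 to 1.85 normalized CPM) and A2M (0 to 0.525) overlap, and their order was not resolved. PZP reached at most 1 count in any of the 26 count libraries. The order was different in A4573, where A2M led at 6.34 normalized CPM per kb in the library labelled WT and 3.55 in STAG2 KI, and in SK-N-MC A2M was at 2.68 in the library with STAG2, next to CD109 at 3.11.

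**Figure D1:**
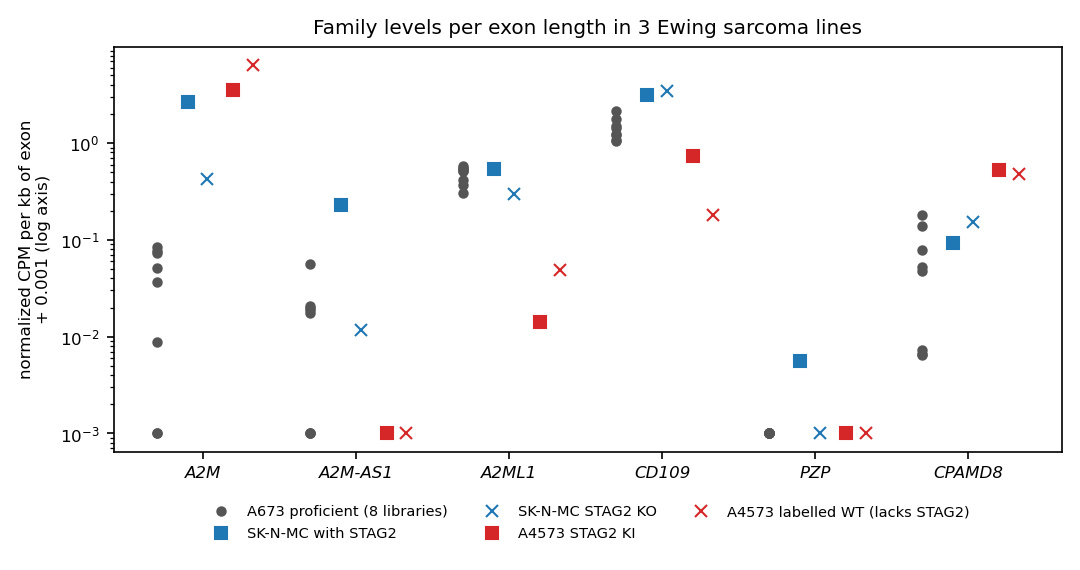
Level of each family member as normalized CPM per kb of exon, with 0.001 added on a log axis, in the 8 proficient A673 libraries (grey) and the 4 isogenic libraries (squares with STAG2, crosses without). A2M lies near the bottom in A673 (mean 0.0406) and at 3.55 and 6.34 in A4573, whereas CD109 is high in A673 and SK-N-MC and PZP is near 0 throughout.

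A2M went from a trace in proficient cells to a well expressed gene in every EZH2 KO and SUZ12 KO clone. Its counts in the proficient libraries of experiment 2 were 8 and 5 in the WT clone and 4 in the parental line. In EZH2 KO clones 1, 2 and 3 they were 1220, 238 and 793, and in SUZ12 KO clones 1, 2 and 3 they were 1762, 2843 and 1164. Every KO clone was above every control, as was so for 23.1% of all genes in EZH2 KO and 23.6% in SUZ12 KO, and the EZH2 KO clone with the least A2M still stood at 12.998 normalized CPM against 0.456 in the highest control. The log2 fold change was 6.83 (SE 0.667, n = 3 and 3) in EZH2 KO and 8.16 (SE 0.684) in SUZ12 KO, with both comparisons resting on the same 3 controls. Per kb of exon, A2M at a mean of 14.7 in SUZ12 KO cells stood above A2ML1 (3.74), CD109 (2.53) and CPAMD8 (0.314), and in EZH2 KO cells A2M was at 5.78, CD109 at 2.91 and A2ML1 at 2.56. Between the 2 kinds of clone, EZH2 KO lay below SUZ12 KO by a log2 difference of −1.33 (SE 0.455), and no EZH2 KO clone reached a SUZ12 KO clone, which held for 5.58% of all genes. The margin was small, 58.8 in EZH2 KO 1 against 62.9 in SUZ12 KO 3.

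**Figure D2:**
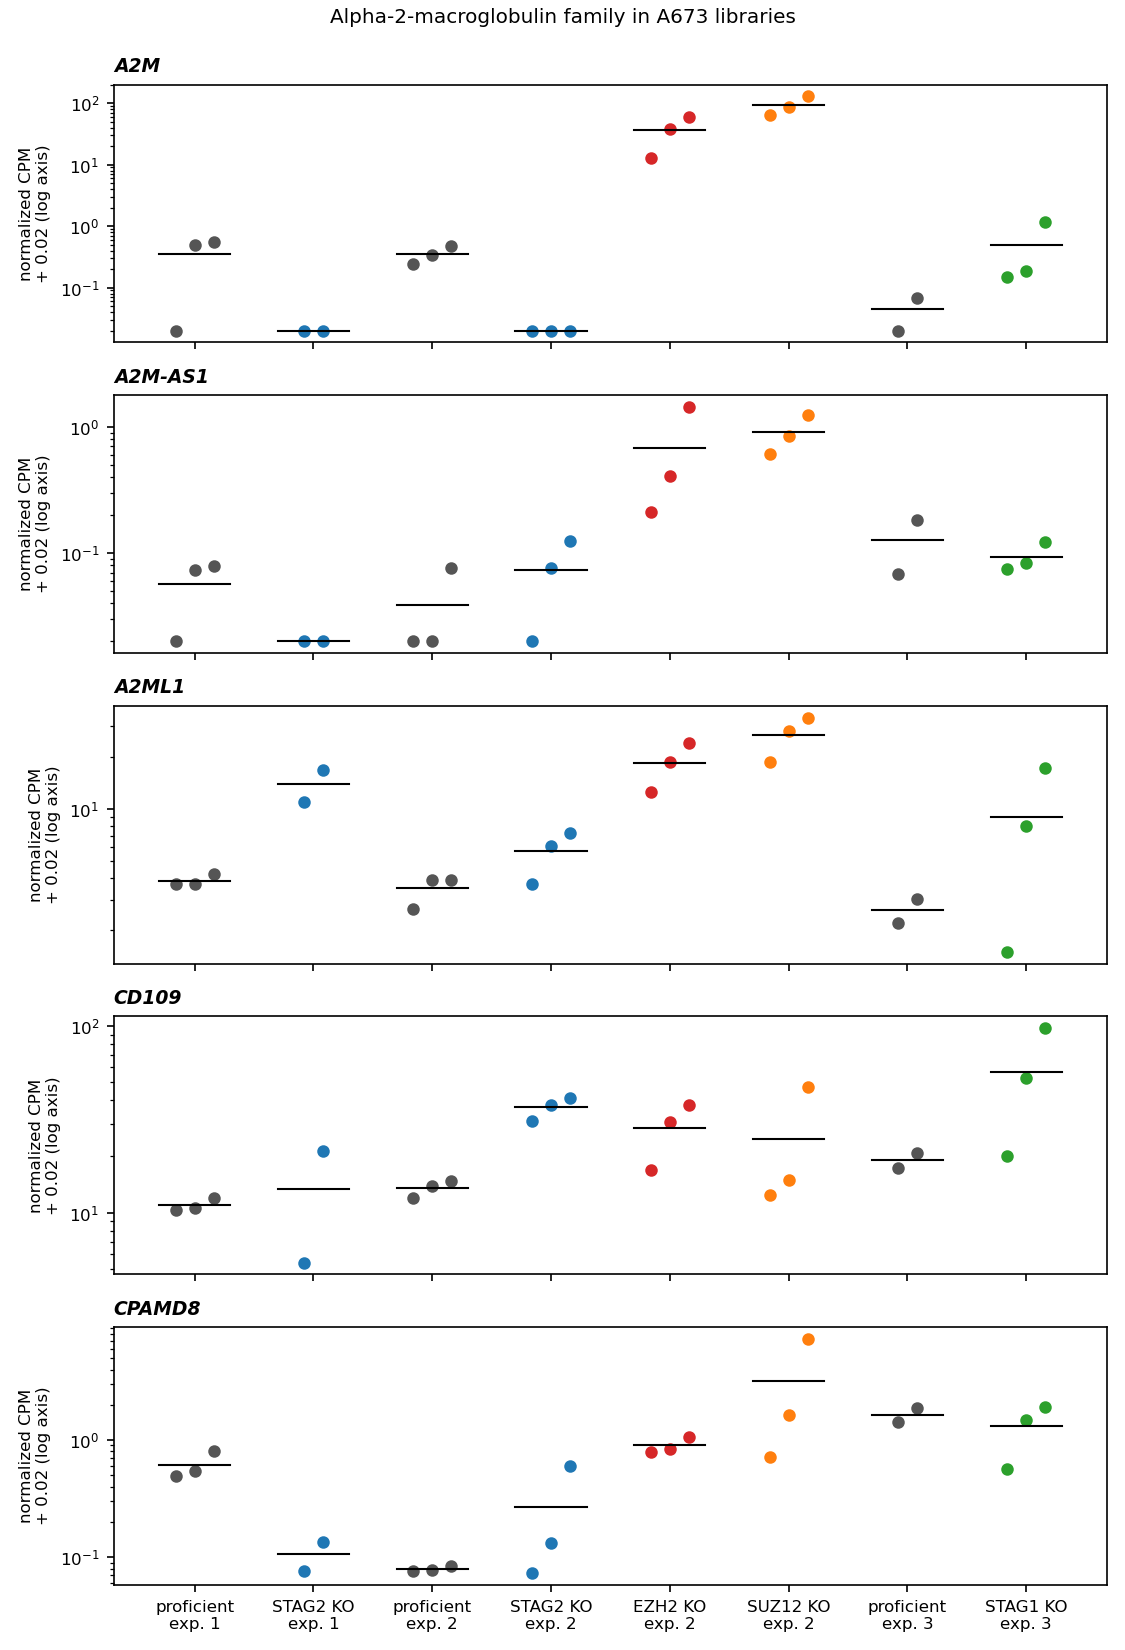
Normalized CPM of the 5 detected members in each A673 library, with 0.02 added on a log axis, by group and experiment (points, libraries; lines, group means). All 6 EZH2 KO and SUZ12 KO libraries lie above every proficient library of experiment 2 for A2M, A2M-AS1, A2ML1 and CPAMD8, and for CD109 the SUZ12 KO library at 12.4 falls among the controls.

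Marker genes of other cell types were read beside these values. Of 8 hepatocyte markers, APOA2, TTR, FGA, FGB and SERPINC1 were at no more than 3 counts in every EZH2 KO and SUZ12 KO library. ALB passed 3 counts in both KO groups but not in the proficient libraries of experiment 2. The summed level of the list was 2.73 to 5.34 normalized CPM in EZH2 KO and 2.09 to 4.54 in SUZ12 KO against 2.57 to 3.88 in proficient libraries. Of 6 endothelial markers only TEK stayed at no more than 3 counts, whereas in the proficient libraries VWF did so too. The endothelial sum was higher, at 3.17 to 6.35 and 5.56 to 10.5 against 1.28 to 2.50. For 8 keratinocyte markers the sum was 34.5 to 59.7 and 32.4 to 50.3 against 29.2 to 36.7, with KRT5, KRT14, KRT1, SPRR1B and IVL at no more than 3 counts in each library. The 6 leukocyte markers summed to 8.19 to 9.54 and 3.54 to 5.51 against 2.85 to 5.74, with CD3E and CD74 at no more than 3 counts. PTPRC and HLA-DRA passed 3 counts in both KO groups but not in the proficient libraries. The 8 fibroblast markers summed to 1126 to 1411 and 850.3 to 980.2 against 1270 to 2698, and 6 neural markers to 300.0 to 334.2 and 287.1 to 310.4 against 442.2 to 521.0. The part of the markers that move with A2M in its level was not tested. In bulk RNA, fewer cells of a type and less RNA per cell cannot be told apart.

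A2M-AS1 was at 0, 0 and 1 counts in the proficient libraries of experiment 2. It was at 8, 26 and 4 counts in EZH2 KO clones 1, 2 and 3 and at 17, 27 and 11 in the SUZ12 KO clones. All were above every control, as was so for 23.1% of all genes in EZH2 KO and 23.6% in SUZ12 KO. Pooled over libraries the ratio to controls was 32.3 (exact 95% interval 5.46 to 1310, counting error only) in EZH2 KO and 46.0 (7.92 to 1850) in SUZ12 KO. The 1 control count came from the parental line, and the WT clone libraries alone had 0. The antisense counts did not keep step with those of A2M in every clone. They made up 0.651%, 9.85% and 0.502% of the counts of both genes in EZH2 KO clones 1, 2 and 3, so that EZH2 KO 2, with the fewest A2M counts of the 6 clones, held more antisense counts than either other EZH2 KO clone. In the SUZ12 KO clones the share was 0.956%, 0.941% and 0.936%. The interval of EZH2 KO 2 (6.53% to 14.1%, Clopper-Pearson) does not meet those of the other 5 clones, whose highest bound was 1.67%. SK-N-MC with STAG2 was also high at 3.81% (2.43% to 5.67%), while A4573 had 0 antisense counts beside 1275 and 718 of A2M, where the limit of 3 counts allows shares of 0.235% and 0.418% and the exact intervals reach 0.289% and 0.512%.

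**Figure D3:**
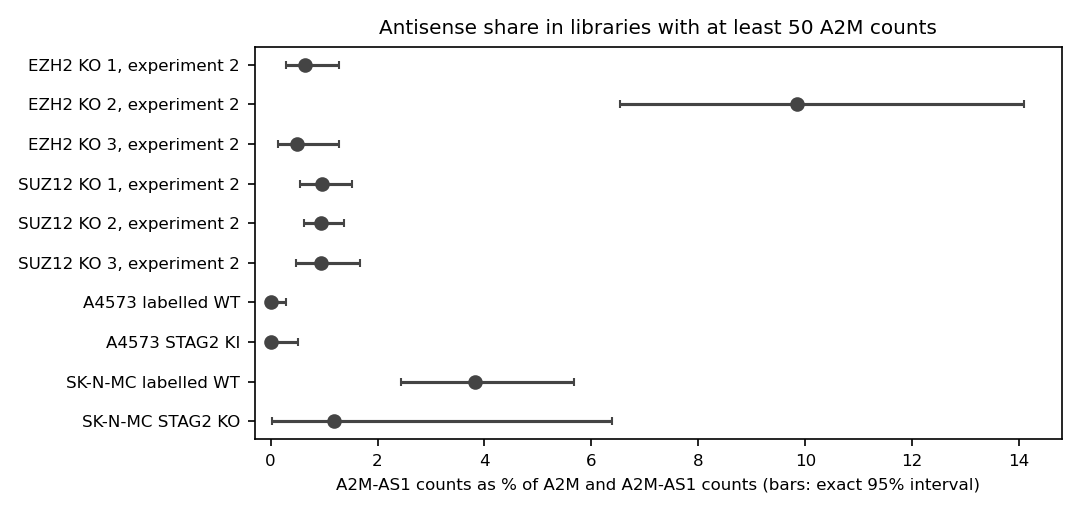
Counts of A2M-AS1 as a percentage of the counts of A2M and A2M-AS1 in the 10 libraries with at least 50 A2M counts, with exact 95% intervals. EZH2 KO 2 stands at 9.85%, the other 5 PRC2 KO clones at 0.502% to 0.956%, and both A4573 libraries at 0.

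A2ML1, the epidermal inhibitor, was present in proficient cells and was higher in the same clones. Counts in experiment 2 were 68, 41 and 70 in the 2 WT clone libraries and the parental line, 495, 342 and 261 in EZH2 KO clones 1 to 3 and 381, 739 and 521 in SUZ12 KO clones 1 to 3. Each KO clone was above each control, as was so for 23.1% of all genes in EZH2 KO and 23.6% in SUZ12 KO. SUZ12 KO 2 had the highest level, 33.5 normalized CPM. The log2 fold change was 2.48 (SE 0.353) in EZH2 KO and 3.01 (SE 0.359) in SUZ12 KO. STAG2 KO libraries were higher in experiment 1, at 188 and 297 counts against 63, 69 and 80, than in experiment 2, at 116, 138 and 66 counts for libraries 3, 5 and 2. In experiment 2, library 2 lay among the controls. The log2 fold change over both experiments was 1.28 (SE 0.283, n = 5 and 6), 1.85 (SE 0.262) in experiment 1 alone and 0.77 (SE 0.374) in experiment 2 alone, with a difference of 1.07 (SE 0.470). In STAG1 KO the counts were 272, 27 and 155 in libraries 1, 5 and 7 against 45 in the parental line and 55 in the WT clone. The lowest of them was library 5, where STAG1 was lowest, and the highest was the library labelled STAG1 KO 1, where STAG1 was at the control level. The log2 fold change was 1.77 (SE 0.924) with that library and 0.88 (SE 0.757) without it. The 8 keratinocyte markers summed to 55.1 to 91.6 normalized CPM in STAG1 KO against 23.6 to 44.2 in its controls, and to 23.0 to 38.9 in STAG2 KO against 28.5 to 76.0 in its controls, and their part in these values was not tested.

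CPAMD8 was close to absent in the controls of experiment 2 and passed the filter on low counts only through the KO libraries, so the values fitted after filtering are given as a description. It was at 1 count in each of the 3 proficient libraries of experiment 2, at 16, 15 and 22 counts in EZH2 KO clones 1 to 3 and at 33, 161 and 13 counts in SUZ12 KO clones 1 to 3. All 6 clones were above all controls, as was so for 23.1% of all genes in EZH2 KO and 23.6% in SUZ12 KO. SUZ12 KO 2 held 161 of the 207 SUZ12 KO counts. The log2 fold change was 3.84 (SE 1.11) in EZH2 KO and 5.69 (SE 1.10) in SUZ12 KO. With no filter on low counts edgeR gave 3.83 (adjusted p = 0.0313) and 5.66 (adjusted p = 0.00199), where 2330 and 3345 of 22279 genes were called. Over all genes tested after filtering, 15.7% were called in EZH2 KO and 20.6% in SUZ12 KO. Pooled counts gave ratios of 15.03 (exact 95% interval 4.87 to 75.2) and 57.7 (19.5 to 282). Without SUZ12 KO 2 the log2 fold change after filtering was 4.22 (SE 0.895). In EZH2 KO, leaving out any 1 EZH2 KO or proficient library gave a log2 fold change after filtering of 3.70 to 3.93, and CPAMD8 was then not called. Its level in proficient cells also depended on the experiment, with 9, 9 and 15 counts in experiment 1 and 34 and 29 in experiment 3. At 0.771 to 1.05 normalized CPM, the EZH2 KO clones lay near the proficient libraries of experiment 1 (0.477 to 0.782) and below those of experiment 3 (1.42 and 1.85), so the difference stands within experiment 2 only.

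CD109, the TGF-beta co-receptor, was higher in some clones of each arm, without passing the test in EZH2 KO or SUZ12 KO. Its normalized CPM was 11.97, 13.9 and 14.7 in the proficient libraries of experiment 2, 37.8, 30.6 and 16.9 in EZH2 KO clones 1 to 3 and 12.4, 46.8 and 15.02 in SUZ12 KO clones 1 to 3. The EZH2 KO clones were above all controls, as was so for 23.1% of all genes, and the SUZ12 KO clones overlapped the controls. The edgeR fit gave a log2 fold change of 1.16 (SE 0.445, adjusted p = 0.102) in EZH2 KO and 0.95 (SE 0.444, adjusted p = 0.156) in SUZ12 KO. Over all genes, 15.7% and 20.6% were called. The SUZ12 KO value rested on clone 2, and was 0.10 (SE 0.298) without it. With only EZH2 KO and proficient libraries in the fit, the EZH2 KO value was 1.16 (adjusted p = 0.0197), where 3429 of 14262 genes were called. SUZ12 KO 2 was the highest SUZ12 KO clone for A2M, A2M-AS1, A2ML1, CD109 and CPAMD8 alike.

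EZH2 KO and SUZ12 KO clones were also compared directly, where 1 gene of 15130 was called (0.00661%). CD109 differed by a log2 value of 0.22 (SE 0.436, adjusted p = 0.999) and CPAMD8 by −1.84 (SE 0.815, adjusted p = 0.999), both with overlapping groups. The differences of A2ML1, −0.53 (SE 0.328), and A2M-AS1, −0.40 (SE 0.741), are given as descriptions.

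**Figure D4:**
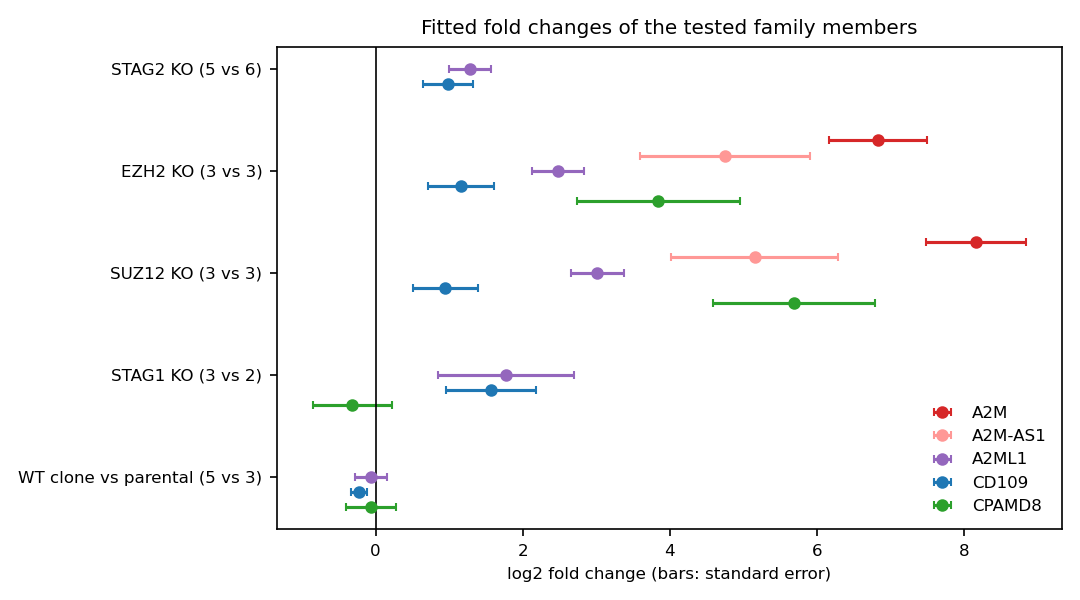
Log2 fold changes with standard errors of the family members that passed the filter on low counts in each A673 comparison; A2M, A2M-AS1 and A2ML1 in EZH2 KO and SUZ12 KO, and A2ML1 in all KO arms, are shown as descriptions. A2M is at 6.83 and 8.16 in the PRC2 KO arms, whereas the 3 members fitted in the WT clone against the parental line lie at −0.22 to −0.06.

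A2M was not detected in any STAG2 KO library. All 5 had 0 counts, against 9, 9 and 0 counts in the WT clone and parental libraries of experiment 1 and 8, 5 and 4 in experiment 2. The parental library of experiment 1, at 0, is at the level of the KO libraries, so the groups meet there. The proficient libraries of experiment 3, outside this comparison, were also at or near that level, with 0 counts in the WT clone and 1 in the parental line. Pooled over the groups, A2M was at least 9.985-fold lower in STAG2 KO, with 3 counts over the group as the floor, and the exact 95% interval of the ratio reached up to 0.130. At these low counts A2M did not pass the filter on low counts. An exact permutation test within experiments (200 relabellings, two-sided) gave p = 0.035 where the smallest possible was 0.005, and 0.07 after adjustment over A2M and CPAMD8, the 2 genes tested in this way. It counts the 2 WT clone libraries of experiment 1, which differed little from each other over all genes, as separate samples. Without the filter, edgeR gave a log2 fold change of −5.59 (adjusted p = 0.0314), where 1612 of 21063 genes were called. DESeq2 gave −5.00 (adjusted p = 0.00901), where 2616 of 15914 genes were called. A2M-AS1 was at 3 counts over each group. CPAMD8 had 17 counts over the STAG2 KO libraries and 36 over the proficient ones, with 2 and 1 against 9, 9 and 15 in experiment 1, and 1, 11 and 2 against 1, 1 and 1 in experiment 2 (exact permutation p = 0.345).

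CD109 was higher in 4 of the 5 STAG2 KO libraries. Its level was 41.2, 37.7 and 30.9 normalized CPM in libraries 3, 5 and 2 of experiment 2, above the controls at 11.97 to 14.7. In experiment 1 it was at 21.5 in library 5 but at 5.37 in library 24, below the controls at 10.3 to 11.995. Over both experiments the log2 fold change was 0.99 (SE 0.340, adjusted p = 0.0844, edgeR), among 12.4% of all genes called. Without library 24 it was 1.34 (adjusted p = 0.000767), where 1382 of 13816 genes were called. Without any other single library it was 0.84 to 1.06 and was not called (adjusted p = 0.0654 to 0.245). In experiment 2 alone it was 1.49 (adjusted p = 0.0116), where 494 of 13383 genes were called, and in experiment 1 alone 0.30 (adjusted p = 0.694). DESeq2 called it over both experiments (adjusted p = 0.0236). The 8 fibroblast markers summed to 556.6 to 957.8 normalized CPM in STAG2 KO against 1270 to 2698, and their part was not tested. The effect in experiment 1 minus that in experiment 2 was −1.22 (SE 0.574, adjusted p = 0.177). For this difference edgeR called 0 genes, with 4150 at an unadjusted p under 0.05, and DESeq2 called 2236.

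In STAG1 KO libraries 1, 5 and 7, CD109 was at 20.1, 52.5 and 97.3 normalized CPM against 21.0 in the parental line and 17.3 in the WT clone. The 2 libraries with reduced STAG1 were above both controls and the library labelled STAG1 KO 1 was between them. A log2 fold change of 1.57 (SE 0.612, adjusted p = 0.182) was fitted, where 5.27% of all genes were called, and 1.98 (SE 0.308, adjusted p = 0.0278) without the library labelled STAG1 KO 1. The 8 fibroblast markers summed to 3733 to 3997 normalized CPM in STAG1 KO against 2229 to 2645 in its controls, and their part in the level of CD109 was not tested. CPAMD8 was at 23, 10 and 37 counts against 29 and 34 (log2 fold change −0.32, SE 0.538, adjusted p = 0.753), and −0.39 (adjusted p = 0.716) without the library labelled STAG1 KO 1. A2M was at 2, 3 and 22 counts in the 3 libraries and at 1 and 0 in the controls, too low for the fit after filtering. These libraries lay above both controls, as did 22.1% of the genes tested. The pooled ratio was 19.7 (exact 95% interval 3.24 to 805), and 5.72 (0.640 to 270) without library 7, which held 22 of the 27 counts, and 25.8 (4.23 to 1061) without the library labelled STAG1 KO 1. The summed hepatocyte markers were at 2.25 to 4.38 normalized CPM in STAG1 KO against 0.871 to 1.17 in its controls, with APOA1, APOA2, TTR, FGA, FGB and SERPINC1 at no more than 3 counts. ALB passed 3 counts in STAG1 KO but not in its controls. The endothelial sum was 2.58 to 7.37 against 1.90 to 2.12, with VWF and TEK at no more than 3 counts, and the leukocyte sum 7.12 to 11.6 against 3.17 to 4.08, with PTPRC, CD3E, HLA-DRA and CD74 at no more than 3. Their part in the level of A2M was not tested. A2M-AS1 was at 1, 1 and 2 counts against 1 and 3.

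After transient loss of STAG2 no member reached the minimum mean value of 10 set for the test. CD109 was at 8, 11 and 11 recovered reads in siC and 8, 11 and 8 in siSTAG2, with overlapping groups. Without that minimum, limma gave a log2 fold change of −0.13 (adjusted p = 0.900), and 20.5% of the genes over the minimum were called. A2ML1 was at 3, 1 and 5 reads in siC and 3, 1 and 1 in siSTAG2, with overlapping groups. CPAMD8 was at 3, 4 and 3 reads in siC and 2, 1 and 1 in siSTAG2, near the floor of 3 counts. For CPAMD8 limma without the minimum gave a log2 fold change of −0.90 (SE 0.594, adjusted p = 0.441). A2M had 1 read in a siC library and 0 in the others, and A2M-AS1 and PZP had 0 in all 6.

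In the isogenic pairs, with 1 library per arm and hence no test, A2M went in opposite directions. In SK-N-MC it was at 580 counts with STAG2 and 84 in STAG2 KO, a log2 ratio of −2.63 without over with STAG2 (16.9 and 2.68 normalized CPM, with exact Poisson intervals of 15.6 to 18.3 and 2.13 to 3.31). In A4573 it was at 718 counts in STAG2 KI and 1275 in the library labelled WT, which lacks STAG2, a log2 ratio of 0.84. A2M-AS1 followed A2M in SK-N-MC, at 23 and 1 counts, and had 0 in both A4573 libraries. CD109 was alike in SK-N-MC, at 1045 counts with STAG2 and 1049 without (log2 ratio 0.13), and lower in A4573 without STAG2, at 56 against 228 counts (−1.98). A2ML1 was at 133 counts with STAG2 and 67 without in SK-N-MC (−0.84) and at 3 and 11 in A4573. CPAMD8 was at 32 and 49 counts in SK-N-MC and 170 and 154 in A4573. A difference of more than 2-fold downward was seen for 11.2% of genes in SK-N-MC and 14.8% in A4573, and upward for 10.4% and 7.3%. The intervals cover counting error only.

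The WT clone and the parental line, whose difference was not used in choosing the genes, had like levels of A2ML1 (log2 difference −0.06, SE 0.213, adjusted p = 0.913), CD109 (−0.22, SE 0.108, adjusted p = 0.342) and CPAMD8 (−0.06, SE 0.343, adjusted p = 0.951) over 5 and 3 libraries, while 2.72% of all genes were called. A2M was at 31 counts over the WT clone libraries and 5 over the parental ones, a pooled ratio of 4.08 (1.57 to 13.4), below the filter of the fit. In experiment 1 the contrast was 9 and 9 counts against 0, in experiment 2 it was 8 and 5 against 4, and in experiment 3 it was 0 against 1.

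Genes around A2M on 12p13.31 were read in the same PRC2 KO clones from a list of 19, of which 18 were found and 12 tested. Of these, 2 were called higher in EZH2 KO and 3 in SUZ12 KO, against 12% and 14.7% of all genes, with 0 lower, and the median log2 fold change was 0.38 and 0.60 against 0.04 and 0.01 over all genes. SLC2A3, a glucose transporter at −1097 kb from the start of A2M, rose by a log2 value of 1.68 (adjusted p = 0.000854) in EZH2 KO and 1.62 (adjusted p = 0.000699) in SUZ12 KO. RIMKLB, an N-acetylaspartylglutamate synthase, rose by 0.98 and 1.16 (adjusted p = 0.00242 and 0.000725), and PHC1, a subunit of PRC1, by 0.76 in SUZ12 KO (adjusted p = 0.00164) with 0.38 in EZH2 KO (adjusted p = 0.0619). M6PR and KLRG1, which like PHC1 lie between A2ML1 and A2M, were at −0.04 and 0.08 in EZH2 KO and −0.13 and 0.43 in SUZ12 KO, none called. DDX12P, on the far side of PZP, was at −0.03 and 0.14.

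**Figure D5:**
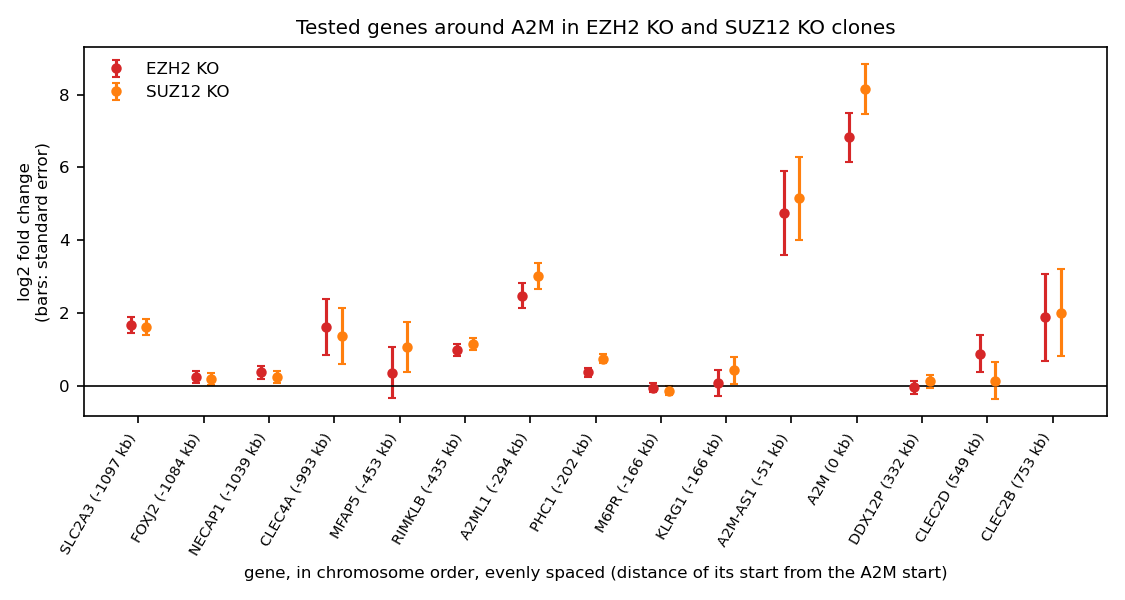
Log2 fold changes with standard errors in EZH2 KO and SUZ12 KO of the tested genes around A2M, evenly spaced in chromosome order with the distance of each start from that of A2M in kb. A2M and A2M-AS1 stand highest, A2ML1 follows at 2.48 and 3.01, and of the genes between them PHC1 is at 0.38 and 0.76 and M6PR and KLRG1 at −0.13 to 0.43.

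Near CD109 on 6q13, 1 of 10 tested genes was called in each PRC2 arm, where 15.7% and 20.6% of all genes were called, the motor protein gene MYO6, with log2 fold changes of 5.91 (adjusted p = 0.00741) in EZH2 KO and 6.06 (adjusted p = 0.00492) in SUZ12 KO. In STAG1 KO, 3 of 8 were called, all higher, TMEM30A, COX7A2 and SENP6 (log2 fold changes 0.65, 0.63 and 0.56), against 2.77% of all genes. Without the library labelled STAG1 KO 1 these were at 0.63, 0.66 and 0.59 and 4 of 8 were called higher, against 5.24% of all genes. Near CPAMD8 on 19p13.11, NWD1 was called in EZH2 KO (2.27, adjusted p = 0.0273), and NWD1 (3.07), TMEM38A (3.06) and, downward, BABAM1 (−0.51) in SUZ12 KO, of 13 tested. In STAG2 KO and STAG1 KO 0 of the 13 were called by edgeR, and without the library labelled STAG1 KO 1, 1 was called higher and 1 lower.

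The partners of these proteins were read from lists of receptors, substrates and signaling genes, all values being log2 fold changes. Over all genes, 12% were called higher and 3.69% lower in EZH2 KO, 14.7% and 5.87% in SUZ12 KO, 6.67% and 5.76% in STAG2 KO, 2.77% and 2.5% in STAG1 KO, 9.54% and 11% in siSTAG2 and 1.76% and 0.96% in the WT clone against the parental line. Without the library labelled STAG1 KO 1, 5.24% were called higher and 3.96% lower in STAG1 KO, and without either of its 2 controls edgeR called 0 genes there, with 1668 and 2206 at an unadjusted p under 0.05. Of 7 receptors and chaperones of A2M, 6 were tested, and LRP8, an apolipoprotein E receptor, rose in EZH2 KO (0.72, adjusted p = 0.0213) and SUZ12 KO (0.69, adjusted p = 0.0205), while the extracellular chaperone CLU fell in SUZ12 KO (−1.78, adjusted p = 0.00489). LRP1, the receptor of the closed A2M complex, was not called in a KO arm and fell by 0.59 on the log2 scale in siSTAG2 (adjusted p = 0.0356), as did CLU and HSP90B1 among 4 that fell. LRPAP1, the chaperone of LRP1, fell by 0.55 on the log2 scale in STAG2 KO (adjusted p = 0.0279). In STAG1 KO the endoplasmic reticulum chaperones HSP90B1 and HSPA5 rose (0.85 and 0.74, and 0.87 and 0.71 without the library labelled STAG1 KO 1).

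The TGF-beta list held 22 genes. Of those tested, 3 rose and 2 fell in EZH2 KO, 5 rose and 5 fell in SUZ12 KO, 2 rose and 4 fell in STAG2 KO, 5 rose and 1 fell in STAG1 KO and 1 rose and 8 fell in siSTAG2, so the list held calls in both directions in each arm. Without the library labelled STAG1 KO 1, 7 rose and 1 fell in STAG1 KO. The type I receptor genes ACVRL1 and TGFBR1 rose in EZH2 KO (5.81 and 1.92), SUZ12 KO (5.31 and 1.73) and STAG1 KO (2.41 and 2.38, and 2.53 and 2.42 without the library labelled STAG1 KO 1). The inhibitor SMAD6 fell in EZH2 KO (−1.49), SUZ12 KO (−1.66) and STAG2 KO (−0.89). LTBP1, which stores latent TGF-beta in the matrix, fell in STAG2 KO (−3.37) and EZH2 KO (−2.03), and TGFB2 fell in SUZ12 KO (−3.39) and siSTAG2 (−1.73). In STAG2 KO the co-receptor ENG rose (0.89, adjusted p = 0.0223), as it did in siSTAG2 (0.53).

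Of 19 genes of the IL6-STAT3 arm, 17 were tested in the PRC2 KO clones, with 3 higher and 1 lower in EZH2 KO and 5 higher and 1 lower in SUZ12 KO. Their part in the level of A2M was not tested. STAT3 rose by 0.47 in EZH2 KO (adjusted p = 0.01002), IL11 by 1.83 and 1.66 in EZH2 KO and SUZ12 KO, and CEBPB by 1.43 in SUZ12 KO, whereas SOCS3, a feedback inhibitor induced by STAT3, fell in SUZ12 KO (−1.27, adjusted p = 0.0398). In STAG2 KO, JAK2 and IL6ST rose (0.85 and 0.81) and LIFR and JAK1 fell (−1.03 and −0.46).

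Of 26 proteases that A2M can trap, 18 were tested in PRC2 KO clones, with 2 higher and 1 lower in EZH2 KO and 1 higher and 3 lower in SUZ12 KO. MMP13 rose in EZH2 KO and SUZ12 KO (2.80 and 2.28), FAP rose in EZH2 KO (4.19) and PLAU fell in SUZ12 KO (−2.76). In STAG2 KO 4 rose and 2 fell of 14, led by MMP3 (3.44, adjusted p = 0.00112) and MMP9 (−4.01, adjusted p = 0.000433), and in STAG1 KO 4 rose of 16, led by MMP1 (4.62) and MMP3 (3.39). Without the library labelled STAG1 KO 1, 6 rose and 1 fell, with MMP1 at 4.75 and MMP3 at 3.29. In siSTAG2, 6 of 13 fell, among them MMP9 (−2.23). Of 35 other extracellular protease inhibitors, 4 rose and 1 fell in EZH2 KO and 7 rose and 5 fell in SUZ12 KO of 24 tested. SERPINB5 (4.60 and 4.77) and the neuronal SERPINI1 (4.35 and 4.01) rose and TIMP2 fell (−1.41 and −1.54) in both. In STAG2 KO, SERPINB9, TIMP4 and SERPINE2 fell (−2.68, −2.50 and −2.13) and SERPINB8 rose (1.64), and SERPINB8 and SERPINB9 had the same directions in siSTAG2 (0.81 and −1.43). 

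Among 12 growth factors and cytokines that A2M binds, 8 were tested in EZH2 KO and SUZ12 KO, and BDNF (4.23 and 3.90) and VEGFA (1.02 and 1.04) rose in both. VEGFA fell in STAG1 KO (−0.87, and −0.84 without the library labelled STAG1 KO 1) and siSTAG2 (−0.32), and PDGFA fell in STAG2 KO (−2.84) and siSTAG2 (−1.56). In a list of 6 thioester relatives, CD109 among them, 4 were tested, and C3, which carries the same kind of thioester, rose in SUZ12 KO (4.08, adjusted p = 0.0239), as did OVOS2 (1.79, adjusted p = 0.0426). None was called in EZH2 KO. In the WT clone against the parental line, 4 proteases of 15 tested were higher, among them ADAMTS12 (2.17), 2 growth factors of 6, PDGFA (1.37) and VEGFA (0.59), and C5 (0.96) and LTBP1 (1.15), with 0 lower in these lists.

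The genes whose levels over the 12 libraries of experiment 2 were most like those of each member were taken by Pearson correlation of log2 normalized CPM, as a description. For A2M they were CYP2S1 (0.993), BRINP1 (0.990) and NSG2 (0.989), each near 0 in the lowest library and at 25.8 to 38.2 normalized CPM in the highest. For A2ML1 they were DPP4 (0.974), SLC17A7 (0.965) and ZNF385A (0.963). CD109 had lower values, with BMT2 (0.917), CYSTM1 (0.911) and HECA (0.899), and so had CPAMD8, with ARHGAP45 (0.913), TMEM38A (0.910) and GALK1 (0.897). TMEM38A also lies near CPAMD8 on 19p13.11. The 12 points come from 1 experiment and 4 kinds of cell, proficient, STAG2 KO, EZH2 KO and SUZ12 KO, and the libraries of each kind share their genotype.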

How the data were processed

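Reads were processed by the authors before deposit. Single-end reads of 86 nt, from oligo-dT primed libraries without strand information, had been aligned to hg38 with TopHat2 (version 2.0.0), and the submitters' processing notes also name SAMtools (0.1.16) and Bowtie (0.12.7), with 2 mismatches and 5 multi-hits allowed, so a read that matches several relatives could be placed on any of them. The counting program is not given in the sources used here. The deposited clone and isogenic tables hold raw read counts by gene symbol. In the knockdown table the deposited signal is a read number scaled by the authors with a single factor for each library, from which whole reads were recovered for 100% of values (tolerance 0.001 reads).

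Count tables were fitted with edgeR 4.0.16 in R 4.3.3, using TMM, filterByExpr and quasi-likelihood tests. Experiment was a covariate for STAG2 KO and for the WT clone against the parental line, all 12 libraries of experiment 2 entered 1 fit for EZH2 KO and SUZ12 KO, and experiment 3 was fitted alone. The knockdown was tested with limma 3.58.1 on log2(value + 1), at a mean of at least 10. p-values were adjusted over all genes by Benjamini-Hochberg and called under 0.05. An SE is the log2 fold change over the square root of F. Levels come from 1 TMM scaling over the 26 count libraries and fold changes from each fit's own scaling. Isogenic log2 ratios used a prior count of 2, and a gene needed 10 counts over its pair. Ratios of pooled counts have exact 95% intervals, and the floor was 3 counts. PCR reads without molecular identifiers are not independent molecules, so intervals and floors cover counting error only. Where libraries of a group were not separate cultures, p-values measure technical spread. In experiment 1 the pair of WT clone libraries had a mean chi-square of 1.33 per gene, above sampling noise, against 9.41 or more for other pairs. Both were kept as separate libraries. In experiment 2, pairs with STAG2 KO library 5 had the highest means, 112.8 and 140.2, against 25.7 for the other STAG2 KO pair. That library also entered the shared fit for EZH2 KO and SUZ12 KO and was not left out there. Without it, 4048 genes were called in STAG2 KO against 1687 with it. Fits were tested on simulated data. Alternatives were DESeq2 1.42.0, other scalings, filters and controls, and leaving out each library of the groups compared; the permutation tests and a fit with the summed WT clone libraries were added after seeing the data.

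The family, the gene lists and the rule for named genes were chosen with earlier results of these data known. From each list up to 3 called genes with the highest and up to 3 with the lowest log2 fold change per comparison could be named, and list members named with no call were chosen after their values were seen. For likeness, members had to average 1 CPM or more and other genes 5 CPM or more, and the 3 highest correlations of log2(CPM + 1) were taken. No value column was left out, and 7 could be matched to a group only.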

Additional observations from a re-analysis of the deposited data

Results flagged for a closer look

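In a group of 6 proficient libraries, A2ML1 was set apart in the second WT clone library of experiment 2, at 2.63 normalized CPM, by the gap to the next value relative to the range of the group (Dixon's test). By the same test CPAMD8 was high in STAG2 KO library 5 of experiment 2, at 0.578 normalized CPM among 5 STAG2 KO libraries, and in the WT clone library of experiment 3, at 1.85 among 5 WT clone libraries. These 3 came from 11 groups checked, where chance gives about 1 in 20.

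In the isogenic pairs the log2 ratio of A2M, without over with STAG2, had opposite signs, at −2.63 in SK-N-MC and 0.84 in A4573. That of CD109 was 0.13 in SK-N-MC, where the counts were alike at 1045 with and 1049 without STAG2, and −1.98 in A4573. With 1 library per arm the differences between the lines were not tested.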

How the results depend on the processing

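Of the members whose choice did not rest on the comparison, only CD109 passed the filter in STAG2 KO. It was not called, where 12.4% of all genes were. DESeq2 called 2 such members (A2M and CD109), among 2616 of 15914 genes. Without a filter on low counts 1 was called (A2M), among 1612 of 21063 genes. Experiment 2 alone gave 1 (CD109), among 494 of 13383 genes, and leaving out single libraries gave 0 to 1, among 1053 to 4048 genes. In EZH2 KO, CD109 and CPAMD8 were fitted and 1 was called (CPAMD8), against 15.7% of all genes. CPAMD8 passed the filter only through the KO libraries, so its call is a description and not a test. With the WT clone as the only control 0 were called, against 1441 of 15533 genes. With only EZH2 KO and proficient libraries in the fit 2 were called, against 3429 of 14262 genes. On leaving out any 1 EZH2 KO or proficient library 0 were called, against 1169 to 1760 genes. In STAG1 KO, CD109 and CPAMD8 were fitted and 0 were called, against 5.27% of all genes. Leaving out single libraries gave 0 to 1, among 0 to 1310 genes. In the isogenic pairs 2 members passed 2-fold in each line, and 1 in each with at least 50 counts in the pair. Of all genes, 10.4% passed 2-fold upward and 11.2% downward in SK-N-MC, and 7.3% and 14.8% in A4573. Direction turned, on leaving out single libraries, for values that were never called. CD109 in EZH2 KO against SUZ12 KO ranged from −0.103 to 1.06, the highest without SUZ12 KO 2, and was below 0 without EZH2 KO 1 (−0.0346), SUZ12 KO 1 or SUZ12 KO 3 (−0.0505). A2M-AS1 in the same comparison, given as a description, ranged from −1.59 to 0.0492, above 0 without EZH2 KO 3. CPAMD8 in STAG1 KO ranged from −0.709 without library 7 to 0.0596 without library 5. In the WT clone against the parental line A2ML1 ranged from −0.242 to 0.0646 and was above 0 without WT clone 2 or the parental library of experiment 2 or the parental library of experiment 1 (0.0201 to 0.0646), and CPAMD8 from −0.564 to 0.375, above 0 without WT clone b or the parental library of experiment 1. The cause was not tested.

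In the main fits replicate numbers were not used to pair the samples. Same-numbered knockdown libraries correlated in their deviations at 0.0257, 0.0372 and 0.00402, against −0.0305 to 0.00561 for libraries of different number. EZH2 KO and SUZ12 KO clones of the same number correlated at −0.145, 0.403 and 0.367, against −0.442 to 0.155 for clones of different number. Clones numbered 2 and 3 thus went with the clone of the same number, and those numbered 1 did not. With the number as a replicate block 0 members were called in the knockdown and 1 each in EZH2 KO and SUZ12 KO (CPAMD8, a description as above). The calls over all genes went from 2476 to 2881, from 2377 to 2649 and from 3112 to 3620. Calls over all genes moved by more than 1.5 times as follows. In STAG2 KO 1687 were called, but 2616 with DESeq2, 3663 in experiment 1 alone, 494 in experiment 2 alone, and 1053 to 4048 on leaving out single libraries. In EZH2 KO 2377 and in SUZ12 KO 3112 became 1169 to 1760 and 1874 to 3238 on leaving out single libraries, and EZH2 KO had 1441 with the WT clone as the only control. Between EZH2 KO and SUZ12 KO 1 became 22 with DESeq2 and 5 without a filter. In STAG1 KO 757 became 1935 with DESeq2, 0 without either control, 1310 without library 1, 264 without library 5 and 326 without library 7. In the WT clone against the parental line 385 became 631 with DESeq2 and 98 to 953 on leaving out single libraries. Libraries were left out only within the groups compared. Depth limits A2M, A2M-AS1 and CPAMD8 in proficient cells, at 0 to 34 counts.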
